A study of Mus musculus with 10 samples.

Results

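Mammary gland transcripts of 10 genes that carry fatty acids into the secretory cell and join them to glycerol were compared between QSi5 and CBA mice at lactation day 9. The genes were Lpl, Vldlr, Cd36, Fabp3, Gpam, Gpat4, Agpat1, Lpin1, Dgat1 and Dgat2, picked by name out of 12393 genes that both chips represent by a single symbol. Every probeset annotated to 1 of these symbols alone was taken, which gave 21 probesets on 8 chromosomes. QSi5 mice are inbred, come from Quackenbush-Swiss stock and were bred for fecundity, whereas CBA mice (CBA/CaH in the methods) are inbred and were not. Glands of 5 QSi5 and 5 CBA females in their first lactation were arrayed one by one, with replicates 3, 4 and 5 of QSi5 and 1, 4 and 5 of CBA on the MOE430 2.0 chip and the other 2 mice of each strain on MOE430A 2.0. The sample records give both chips whereas the methods name the smaller alone, and the series record speaks of forced weaning at day 9, which the methods do not mention. Values were log2 intensities normalized by the authors over the 22690 probesets that the chips share. Since whole gland was used, a smaller number of cells of a type and less RNA per cell cannot be told apart.

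The lactating gland builds milk triglyceride from chains made in the cell and chains taken from blood. Lipoprotein lipase (Lpl) frees fatty acids from circulating triglyceride, the very low density lipoprotein receptor (Vldlr) binds such particles, the scavenger receptor Cd36 takes fatty acids across the plasma membrane, and the binding protein Fabp3 carries them in the cytosol. The acyltransferases encoded by Gpam (at mitochondria) and Gpat4 (at the endoplasmic reticulum) place the first chain on glycerol 3-phosphate and Agpat1 places the next. Lipin 1 (Lpin1) removes the phosphate, and Dgat1 or Dgat2 adds the last chain.

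Promoter sequences of the 3 genes with a probeset whose strains did not overlap (Agpat1, Cd36 and Lpin1) are shown so that the regions upstream of these transcripts can be read beside their levels. They come from RefSeq on GRCm38.p6, run 5′ to 3′ along the gene, and hold 250 bases before and 50 bases after an annotated start, with motif matches in capitals. The 2 Agpat1 starts lie at chr17:34605611-34605910 (plus strand) and chr17:34608764-34609063 (plus strand), Cd36 at chr5:17835847-17836146 (minus strand) and Lpin1 at chr12:16610917-16611216 (minus strand).
Agpat1 start 1: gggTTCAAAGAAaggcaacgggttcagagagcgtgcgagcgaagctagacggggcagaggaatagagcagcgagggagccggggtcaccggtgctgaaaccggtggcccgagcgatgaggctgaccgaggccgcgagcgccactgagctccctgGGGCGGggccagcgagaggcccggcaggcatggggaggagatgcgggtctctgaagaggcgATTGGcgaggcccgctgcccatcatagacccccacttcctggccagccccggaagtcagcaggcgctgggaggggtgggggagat
Agpat1 start 2: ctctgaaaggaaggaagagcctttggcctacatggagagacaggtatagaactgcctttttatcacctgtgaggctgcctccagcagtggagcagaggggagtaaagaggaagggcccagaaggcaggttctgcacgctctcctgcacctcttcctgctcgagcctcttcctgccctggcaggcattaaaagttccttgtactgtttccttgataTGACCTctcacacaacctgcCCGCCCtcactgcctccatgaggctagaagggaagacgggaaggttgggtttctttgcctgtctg
Cd36: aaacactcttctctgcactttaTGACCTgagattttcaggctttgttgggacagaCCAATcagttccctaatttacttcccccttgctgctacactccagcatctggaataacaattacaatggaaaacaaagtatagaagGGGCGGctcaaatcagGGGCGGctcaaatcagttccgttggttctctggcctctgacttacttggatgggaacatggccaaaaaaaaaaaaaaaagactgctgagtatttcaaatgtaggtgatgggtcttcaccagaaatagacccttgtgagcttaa
Lpin1: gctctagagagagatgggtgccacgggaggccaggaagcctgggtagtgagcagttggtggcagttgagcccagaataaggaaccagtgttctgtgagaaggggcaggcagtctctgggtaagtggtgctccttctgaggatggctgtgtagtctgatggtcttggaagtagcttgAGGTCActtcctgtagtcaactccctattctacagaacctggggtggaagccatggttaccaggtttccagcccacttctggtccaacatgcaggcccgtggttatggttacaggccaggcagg
The letters searched on both strands were CCAAT (the NF-Y box), GGGCGG (the Sp1 box), TATAAA (the TATA box), TTCNNNGAA (the Stat5 site), CACGTG (the E-box), TCACCCCAC (a sterol regulatory element) and AGGTCA (an element of nuclear receptors). CCAAT was matched in the first Agpat1 promoter and in that of Cd36, and is held by 37.4% of all 32851 promoters. GGGCGG was matched in both Agpat1 promoters and at 2 places in that of Cd36, against 35.7% of all promoters. AGGTCA was matched in the second Agpat1 promoter, in that of Cd36 and in that of Lpin1, against 16.3%. TTCNNNGAA was matched in the first Agpat1 promoter alone among the 4 printed, against 8.3% of all promoters. No 2 of the matches in these 4 windows overlapped. TATAAA (13.6% of all promoters), CACGTG (7.15%) and TCACCCCAC (0.551%) were not matched in the 4 windows. Promoters were given for 6 of the 10 genes, these 3 and Vldlr, Fabp3 and Gpam, whose strains overlapped on their tested probesets. The first Gpam promoter matched CCAAT, and the second matched GGGCGG and AGGTCA. The second Vldlr promoter matched CCAAT and GGGCGG, whereas the first Vldlr promoter and that of Fabp3 matched none of the motifs. Whether any motif goes with a strain difference was not tested.

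Both strains expressed all 10 genes above the intensity minimum of 20 on the unlogged scale on at least 1 probeset. Of the 21 probesets, 16 passed that minimum and were tested with limma, and 5 did not. With Benjamini-Hochberg (BH) adjustment over 11412 probesets, 0 of the 16 differed between the strains at an adjusted p under 0.05, against 2.94% of all tested probesets. At the unadjusted p of 0.01, 2 of the 16 passed (Agpat1 1421025_at and Cd36 1450883_a_at), against 6.49% of all. All 5 QSi5 arrays stood above all 5 CBA arrays for 3 of the 16 (Agpat1 1421025_at, Cd36 1450883_a_at and Lpin1 1426516_a_at), against 5.14% of all tested probesets with no overlap in either direction. Estimated differences were positive (higher in QSi5) for 12 of the 16 and negative for 4. Probesets of 1 gene are not independent, and on the brightest probeset of each gene 7 of the 10 were positive. The median of the 16 differences was 0.13 on the log2 scale against 0.0013 over all tested probesets. The median of their sizes was 0.154 against 0.135. Without CBA replicate 1 the median was 0.06 and 10 of the 16 were positive, so that 1 array moved it by more than 1.5 times.

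**Figure D1:**
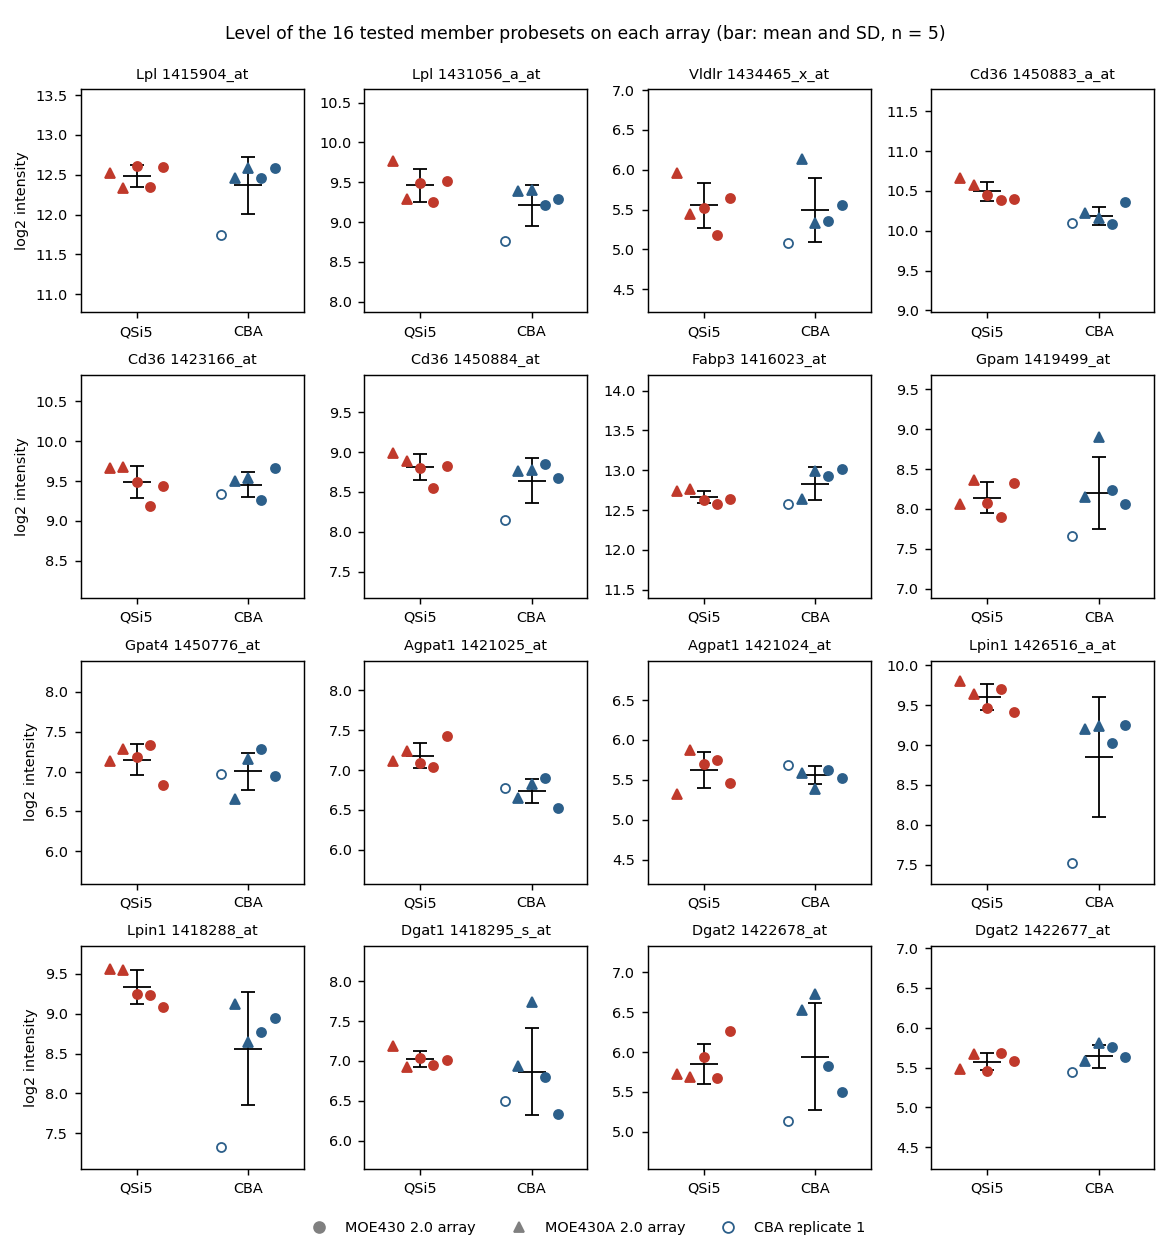
Log2 intensity of the 16 tested member probesets, with QSi5 left and CBA right in each panel, 1 point per array (circles MOE430 2.0, triangles MOE430A 2.0, open circle CBA replicate 1), and bars for the mean and SD of 5 arrays. Every panel spans the same height on its axis, and the 5 QSi5 points stand clear of the 5 CBA points for Agpat1 1421025_at, Cd36 1450883_a_at and Lpin1 1426516_a_at.

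Uptake was represented first by Lpl, on chromosome 8. Lpl 1415904_at read 12.53, 12.33, 12.60, 12.35 and 12.60 on the log2 scale in QSi5 replicates 1 to 5, against 11.74, 12.46, 12.59, 12.46 and 12.58 in CBA replicates 1 to 5. Apart from CBA replicate 1, the 9 arrays lay between 12.33 and 12.60 and the strains overlapped. The difference was 0.12 (95% interval -0.23 to 0.46), and it was -0.04 without CBA replicate 1. Lpl 1431056_a_at averaged 9.46 ± 0.21 in QSi5 and 9.21 ± 0.26 in CBA (SD, n = 5 each), a difference of 0.25 (interval -0.06 to 0.57) that was 0.14 without CBA replicate 1.

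Vldlr, on chromosome 19, was near the minimum. Its tested probeset 1434465_x_at averaged 5.55 ± 0.29 in QSi5 and 5.49 ± 0.40 in CBA (SD, n = 5 each), with a difference of 0.06 (interval -0.36 to 0.49) whose sign turned without QSi5 replicate 1 (-0.04) or CBA replicate 1 (-0.04). The suffix of that probeset marks probes that can match other transcripts. The other 3 Vldlr probesets were under the minimum, with QSi5 means of 2.56 to 3.02 and CBA means of 2.43 to 2.99.

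Cd36, on chromosome 5, was measured by 3 tested probesets that gave unequal differences. Cd36 1450883_a_at read 10.66, 10.58, 10.45, 10.39 and 10.40 in QSi5 replicates 1 to 5, against 10.09, 10.23, 10.16, 10.09 and 10.36 in CBA replicates 1 to 5. The lowest QSi5 array stood 0.03 above the highest CBA array, so the gap between the strains was narrow. QSi5 was higher by 0.31 (interval 0.10 to 0.52, 1.24-fold), with an unadjusted p of 0.0081 and an adjusted p of 0.138 in limma, which is not past the threshold. Cd36 1450884_at averaged 8.81 ± 0.16 in QSi5 and 8.64 ± 0.28 in CBA (SD, n = 5 each), a difference of 0.17 (interval -0.14 to 0.48) that was 0.05 without CBA replicate 1. Cd36 1423166_at averaged 9.49 ± 0.20 in QSi5 and 9.46 ± 0.16 in CBA, and its difference of 0.03 (interval -0.23 to 0.30) overlapped 0.

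Fabp3, on chromosome 4, was the member whose single probeset leaned towards CBA. Its probeset 1416023_at read 12.73, 12.76, 12.63, 12.58 and 12.64 in QSi5 replicates 1 to 5, against 12.58, 12.64, 12.99, 12.93 and 13.02 in CBA replicates 1 to 5. CBA replicates 3, 4 and 5 exceeded every QSi5 array while CBA replicates 1 and 2 lay within the QSi5 range. The difference of -0.16 (interval -0.41 to 0.08) had an adjusted p of 0.551 in limma.

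The enzymes of the first acylation did not separate the strains. Gpam 1419499_at (chromosome 19) read 8.06, 8.36, 8.07, 7.90 and 8.33 in QSi5 replicates 1 to 5, against 7.66, 8.15, 8.90, 8.23 and 8.06 in CBA replicates 1 to 5. The lowest and the highest of the 10 values were both CBA arrays, replicates 1 and 3. Its difference was -0.06 (interval -0.48 to 0.37), with the sign turned to 0.03 when the arrays were quantile normalized again and to 0.12 without CBA replicate 3. Gpat4 1450776_at (chromosome 8) averaged 7.15 ± 0.20 in QSi5 and 7.00 ± 0.24 in CBA (SD, n = 5 each), a difference of 0.15 (interval -0.15 to 0.45) that was 0.23 without QSi5 replicate 5 and 0.06 without CBA replicate 2. The second probesets of both genes were under the minimum, Gpam 1425834_a_at at 4.04 in QSi5 and 4.02 in CBA, and Gpat4 1422841_at at 3.18 in QSi5 and 3.10 in CBA.

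Agpat1, on chromosome 17, gave the smallest p of the 16 probesets. Agpat1 1421025_at read 7.11, 7.24, 7.08, 7.04 and 7.42 in QSi5 replicates 1 to 5, against 6.77, 6.65, 6.83, 6.90 and 6.53 in CBA replicates 1 to 5. Every QSi5 gland was above every CBA gland, and the means were 7.18 ± 0.15 in QSi5 and 6.74 ± 0.15 in CBA (SD, n = 5 each). QSi5 was higher by 0.44 (SE 0.11, interval 0.20 to 0.68, 1.36-fold), with an unadjusted p of 0.0017 and an adjusted p of 0.0546 in limma, just outside the threshold. Within the 6 arrays on MOE430 2.0 the difference was 0.45 and within the 4 arrays on MOE430A 2.0 it was 0.44. The adjusted p lay between 0.0218 and 0.490 over 23 alternative settings and passed 0.05 in 4 of them, one of which left out CBA replicate 4 (0.0459). The other Agpat1 probeset did not show this separation. Agpat1 1421024_at read 5.32, 5.87, 5.70, 5.75 and 5.46 in QSi5 replicates 1 to 5, against 5.69, 5.59, 5.39, 5.63 and 5.52 in CBA replicates 1 to 5. Its strains overlapped, with a difference of 0.06 (interval -0.20 to 0.32). Agpat1 1421024_at was the dimmer probeset, with unlogged means of 49.2 in QSi5 and 47.2 in CBA. Those of 1421025_at were 145 and 107.

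Lpin1, on chromosome 12, had the widest spread over arrays of any member. Lpin1 1426516_a_at read 9.80, 9.64, 9.47, 9.70 and 9.42 in QSi5 replicates 1 to 5, against 7.52, 9.20, 9.24, 9.03 and 9.26 in CBA replicates 1 to 5. Lpin1 1418288_at read 9.56, 9.55, 9.25, 9.23 and 9.09 in QSi5 replicates 1 to 5, against 7.33, 9.12, 8.65, 8.77 and 8.94 in CBA replicates 1 to 5. On both probesets CBA replicate 1 was far below the other 9 arrays, and on the second QSi5 replicate 5 overlapped CBA replicate 2. With all arrays QSi5 was higher by 0.76 (interval 0.12 to 1.39, 1.69-fold, adjusted p = 0.237 in limma) on 1426516_a_at. On 1418288_at it was higher by 0.78 (interval 0.16 to 1.39, 1.71-fold, adjusted p = 0.206 in limma). Without CBA replicate 1 the differences were 0.42 and 0.47, with adjusted p of 0.0963 and 0.134 in limma. The estimates thus shrank by more than 1.5 times and neither passed the threshold, although both then had an unadjusted p under 0.01.

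The last acylation was carried by Dgat1 on chromosome 15 and Dgat2 on chromosome 7. Dgat1 1418295_s_at read 7.19, 6.92, 7.03, 6.95 and 7.01 in QSi5 replicates 1 to 5, against 6.50, 6.94, 7.75, 6.81 and 6.34 in CBA replicates 1 to 5. This single Dgat1 probeset was dropped in the alternative that left out _x_at and _s_at probesets. QSi5 arrays lay close together inside the range of CBA, with an SD of 0.10 in QSi5 and 0.55 in CBA. The difference was 0.16 (interval -0.32 to 0.63), made of 0.45 within MOE430 2.0 and -0.28 within MOE430A 2.0. It was 0.07, 0.38 and 0.03 without CBA replicates 1, 3 and 5.

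Dgat2 1422678_at read 5.72, 5.68, 5.93, 5.67 and 6.26 in QSi5 replicates 1 to 5, against 5.13, 6.53, 6.72, 5.82 and 5.50 in CBA replicates 1 to 5. CBA replicates 2 and 3, the arrays of that strain on MOE430A 2.0, were the highest of the 10. The pooled difference was -0.09 (interval -0.68 to 0.51), made of 0.47 within MOE430 2.0 and -0.92 within MOE430A 2.0. Whether the chips differed in this contrast was not tested. In the fit with chip type as a term, 0 of the 16 member probesets differed between the chips at an adjusted p under 0.05 (lowest 0.284), against 0.526% of all tested. For the adipocyte fatty acid binding protein Fabp4, QSi5 arrays read 8.94 to 9.52, CBA replicates 2 and 3 read 10.29 and 10.70 and the other CBA arrays 9.40 to 9.70. Of the 7 tested adipocyte genes, some were highest on those arrays and some were not. The mean of that list was highest in CBA replicate 2 (7.70). Plin4 (6.07 and 5.94) and Retn (7.71 and 7.77) were highest in CBA replicates 2 and 3, and Lipe in replicate 3 (6.54). Adipoq was highest in CBA replicate 4 (8.05), and Lep was lowest in CBA replicate 3 (3.97) and highest in replicate 2 (5.03). Car3 read 10.24 to 10.95 in QSi5 and 10.87 and 10.31 in CBA replicates 2 and 3. The part of fat cells in the Dgat2 levels was not tested. Dgat2 1422677_at averaged 5.57 ± 0.10 in QSi5 and 5.64 ± 0.14 in CBA (SD, n = 5 each), a difference of -0.07 (interval -0.29 to 0.15).

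**Figure D2:**
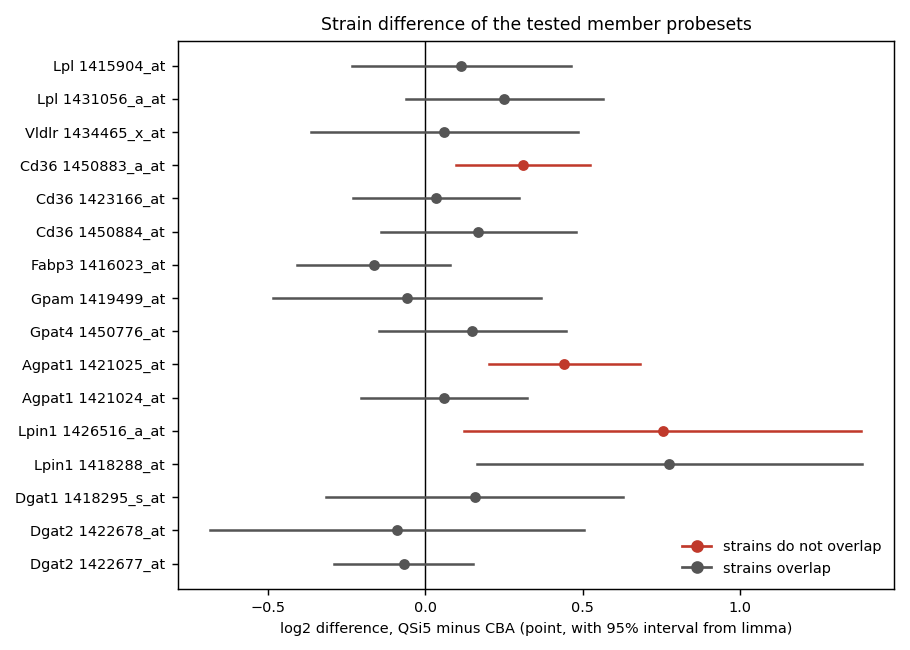
Difference between the strains on the log2 scale (QSi5 minus CBA) for the 16 tested member probesets in the order of the pathway, with limma's 95% interval. Intervals clear of 0 are those of Agpat1 1421025_at (0.20 to 0.68), Cd36 1450883_a_at (0.10 to 0.52) and both Lpin1 probesets.

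Members varied more within CBA than within QSi5. The SD was lower in QSi5 than in CBA for 12 of the 16 probesets, with medians of 0.181 in QSi5 and 0.272 in CBA. Over all tested probesets the SD was lower in QSi5 for 60.0%, with medians of 0.194 in QSi5 and 0.224 in CBA. CBA replicate 1 held the lowest of the 10 values for 9 of the 16 member probesets, whereas it held the lowest value for 8.57% of all tested probesets. On 14 of the 16 it lay below the mean of the other CBA arrays, with a median deviation of -0.49 against 0.01 over all tested probesets.

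The size of the shortfall differed between genes. Lpin1 was furthest down, by 1.66 and 1.54 on the log2 scale (3.17-fold and 2.90-fold), which ranked 15 and 18 from the bottom among 11412 probesets in that array. Dgat2 1422678_at was lower by 1.01, Lpl 1415904_at by 0.79 and Gpam 1419499_at by 0.68. The Cd36 probesets disagreed, since 1450884_at was lower by 0.62 but 1450883_a_at and 1423166_at by 0.12 and 0.15, inside the range of the other CBA arrays. Agpat1 was not low in this mouse, at 0.05 and 0.16 above the mean of the other CBA arrays on its 2 probesets. Gpat4 1450776_at deviated by -0.04.

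Some other lipid genes stood apart in the same array, in both directions, and those given here were named after their values were seen. Angptl4, whose secreted product inhibits lipoprotein lipase, read 4.34 to 5.04 in QSi5 arrays except replicate 2, which was at 8.21. The Lpl probesets of that mouse read 12.33 and 9.29, against 12.35 to 12.60 and 9.25 to 9.76 in the other QSi5 arrays. The lowest of those others on both was QSi5 replicate 4, whose Angptl4 was at 4.67. Whether Angptl4 and Lpl levels are related was not tested. In CBA, Angptl4 read 9.61 in replicate 1 and 4.05 to 6.56 in the other arrays. Srebf1, which encodes a transcription factor of lipid synthesis genes, read 6.91 in CBA replicate 1 against 8.30 to 9.39 in the other CBA arrays. Thrsp, a gene tied to fatty acid synthesis in the mammary gland, read 10.31 in that mouse against 11.59 to 11.92 in the others of its strain. G0s2, an inhibitor of adipose triglyceride lipase, read 9.53 there against 10.15 to 11.43. Between the strains none of these 4 differed (adjusted p of 0.756 to 0.999 in limma). Lpcat1, Plpp2 and Plin3 were 1.49, 1.17 and 1.02 above the mean of the other CBA arrays in CBA replicate 1, and Cidea was 0.03 below it. Of the gene lists described below, the acyltransferase and phosphatase list and the lipase partner and receptor list had their highest mean in CBA replicate 1. The transcription factor list had its lowest mean there. Marker levels moved in that gland too. Of the 7 tested adipocyte genes, Adipoq (6.63) and Retn (6.52) were at their lowest of the 10 arrays there. Car3, Fabp4 and Plin4 were 0.47, 0.45 and 0.28 below the mean of the other CBA arrays, while Lipe and Lep were each 0.10 above it. The mean of the adipocyte list was lowest in CBA replicate 5 (6.76). The mean of the 12 secretory markers spanned 11.77 to 11.87 in QSi5 and 11.70 to 11.95 in CBA, where replicate 1 was the highest. Krt18, Epcam and Krt8 were above the other CBA arrays by 1.08, 0.77 and 0.69, and Elf5 was below them by 0.46. The part of these cell types in the member levels of that mouse was not tested.

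**Figure D3:**
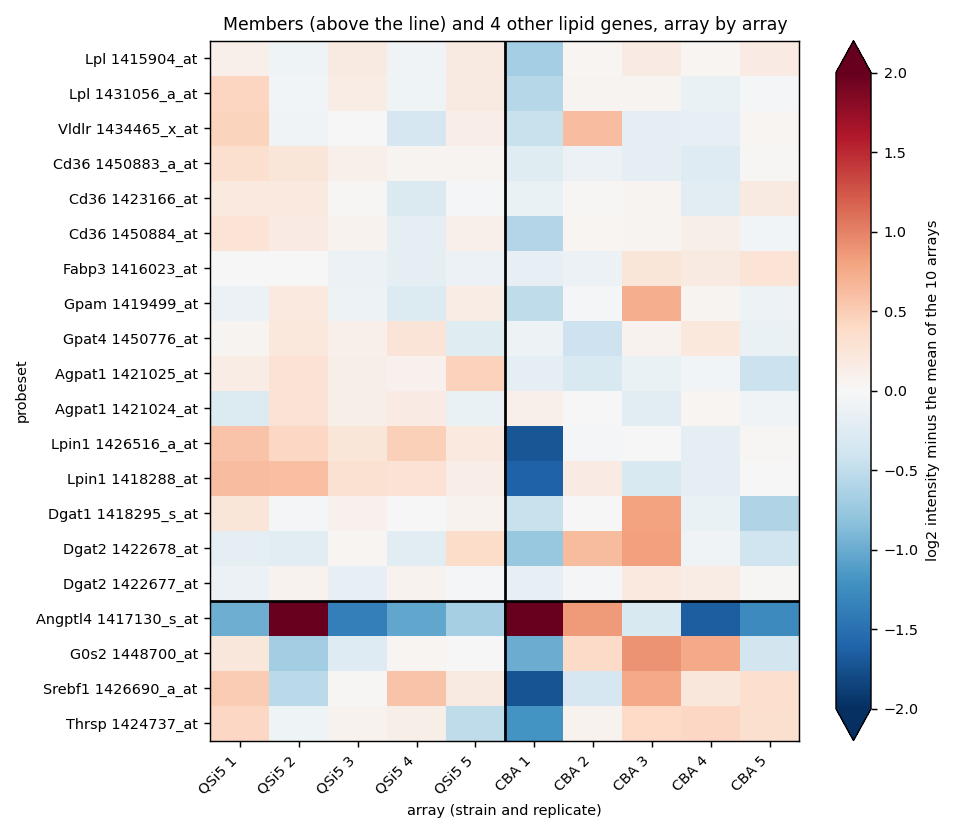
Log2 intensity of each tested member probeset and of Angptl4, G0s2, Srebf1 and Thrsp, as the deviation from the mean of the 10 arrays (red above, blue below), with QSi5 arrays left of the vertical line and CBA arrays right of it. CBA 1 is the bluest column for Lpin1, Lpl, Gpam and Dgat2 1422678_at, and is at 9.61 for Angptl4.

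Other genes of these steps, and of lipid droplets, lipolysis and transcription of lipid genes, were read from 5 lists and are called pathway genes. The lists held 91 genes, of which 56 had a tested probeset and 17 were not on both chips under 1 symbol. Each gene stood by its brightest probeset. Of the 56, 1 was higher and 1 was lower in QSi5 at an adjusted p under 0.05, against 1.32% of all genes higher and 1.39% lower. The gene that rose was Pnpla3, which encodes a patatin-like lipid droplet protein. It read 7.14, 5.79, 6.04, 5.62 and 6.06 in QSi5 replicates 1 to 5, against 4.90, 5.07, 4.93, 5.17 and 5.04 in CBA replicates 1 to 5. The strains did not overlap, and QSi5 was higher by 1.11 (2.16-fold, adjusted p = 0.0225 in limma).

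The gene that fell was Dbi, the acyl-CoA binding protein that carries activated fatty acids. It read 10.23, 10.33, 10.24, 10.11 and 10.14 in QSi5 replicates 1 to 5, against 11.38, 10.76, 11.26, 10.95 and 10.37 in CBA replicates 1 to 5. All QSi5 arrays were below all CBA arrays, and the difference was -0.73 (1.66-fold lower in QSi5, adjusted p = 0.0381 in limma). Without QSi5 replicate 3 or 5 or CBA replicate 1, 2 or 3, neither gene passed. Without QSi5 replicate 1, 2 or 4 or CBA replicate 4, Pnpla3 passed and Dbi did not.

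In the lists without a called gene, the smallest p belonged to Lclat1, Lipg and Scap. Lclat1, a lysocardiolipin acyltransferase, differed by -0.28 (adjusted p = 0.363 in limma, 7 genes tested of the acyltransferase and phosphatase list). Lipg, endothelial lipase, differed by 0.47 (adjusted p = 0.260, 10 genes tested of the lipase partner and receptor list). Scap, which escorts sterol regulatory element binding proteins, differed by -0.45 (adjusted p = 0.294, 13 genes tested of the transcription factor list). None of these 3 passed the threshold. Dbi stood among 13 tested genes of fatty acid transport and activation, and Pnpla3 among 13 of the droplet and lipolysis list. With chip type as a block, Acsl4 and Fabp4 were also called lower in QSi5, which made 4 genes.

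**Figure D4:**
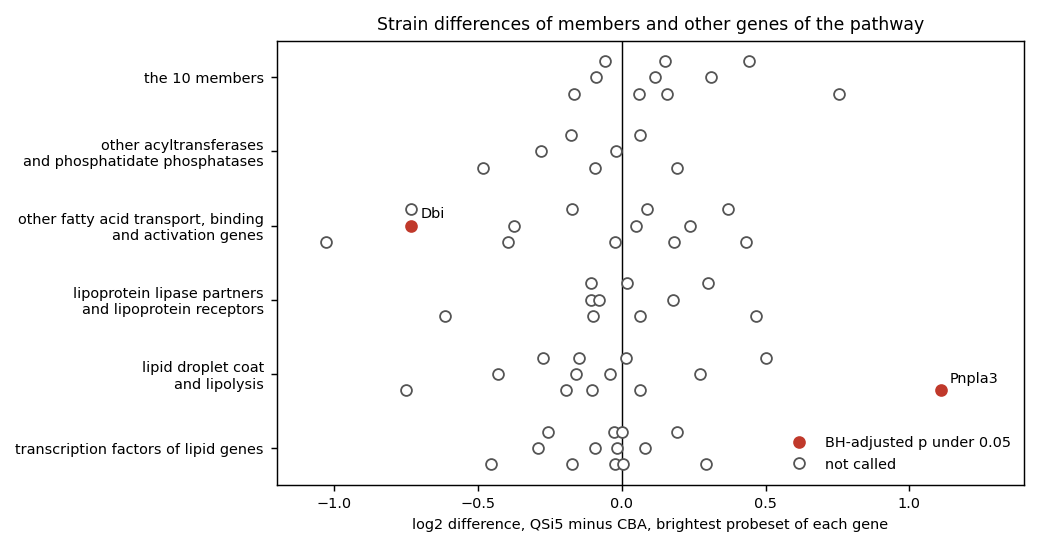
Log2 difference (QSi5 minus CBA) of the brightest probeset of each of the 10 members and of the 56 other tested genes of the pathway by list, 1 point per gene, filled where the BH-adjusted p was under 0.05. Pnpla3 (1.11) and Dbi (-0.73) are the filled points, and the members lie between -0.16 and 0.76.

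Cell type markers were read beside these genes. Of 12 secretory epithelium genes, all tested, Xdh was higher in QSi5 by 0.73 (adjusted p = 0.0011 in limma) and Krt8 was lower by 0.83 (adjusted p = 0.016), while 10 did not pass. Xdh encodes xanthine dehydrogenase, a protein of the milk fat globule membrane, and Krt8 a keratin of luminal cells. Of 12 adipocyte genes 7 were tested and 0 passed, with mean list levels of 6.91 to 7.29 in QSi5 and 6.76 to 7.70 in CBA, and Cidec, Pck1 and Acvr1c under the minimum. The smallest p of that list was that of Fabp4, at -0.73 (adjusted p = 0.132). Of 12 endothelial genes 7 were tested and 0 passed, with levels of 4.77 to 4.84 in QSi5 and 4.79 to 5.18 in CBA, and Pecam1, Tek, Tie1 and Emcn were under the minimum. Its smallest p was that of Cdh5 (-0.32, adjusted p = 0.150). Of 12 skeletal muscle genes 4 were tested (levels of 4.59 to 5.03 in QSi5 and 4.66 to 4.93 in CBA), and Acta1, Mylpf and Atp2a1 were among those under the minimum. The smallest p there was that of Myh1 (0.10, adjusted p = 0.826).

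The brown adipocyte list had 3 of 6 genes tested, with Ucp1 under the minimum, and 0 passed (Cox8b -0.57, adjusted p = 0.282). In the macrophage list C1qa, a complement component, was higher in QSi5 by 1.22 (adjusted p = 0.0091 in limma), while C1qb and C1qc differed by -0.16 and -0.04 and did not pass. In the lymphocyte list 3 of 9 genes were tested and 0 passed, with Jchain at 0.68 (adjusted p = 0.596). Ptprc read 8.10 in QSi5 replicate 4 and 4.13 to 4.83 in the other QSi5 arrays, against 3.77 to 5.56 in CBA. Over the 22626 probesets other than controls the array medians lay between 4.21 and 4.30. Over the tested probesets CBA replicate 3 had the lowest median correlation with its own strain (0.943). The part of these markers in the member levels was not tested.

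Genes next to each member on its chromosome were also read, with the 5 nearest tested genes on each side in RefSeq order. Around Agpat1 0 of 10 neighbours were called. Those on its flanks were Rnf5, with a difference of 0.28 (adjusted p = 0.389), and Egfl8, with a difference of -0.48 (adjusted p = 0.108). Around Cd36 2 of 10 were called, both lower in QSi5, namely Gnai1 by 0.86 (adjusted p = 0.0131) and Armc10 by 0.51 (adjusted p = 0.0371 in limma). Around Dgat2 1 of 10 was called, Thap12, lower by 0.56 (adjusted p = 0.0167). None of the neighbours of the other 7 members was called. Over all tested genes 1.32% were called higher and 1.39% lower in QSi5. Whether called genes gather near any member was not tested.

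Probesets with the most similar pattern over the 10 arrays, after each was scaled to its own mean and SD, were taken for 2 member probesets. For Agpat1 1421025_at they were those of Rbl2 (root mean square difference of 0.291 SD), Dcun1d1 (0.306) and Nln (0.369). Their strain differences were 0.90 for Rbl2, 0.40 for Dcun1d1 and 0.64 for Nln. These were fixed in direction by the choice, since Agpat1 1421025_at itself separates the strains, and are given as a description. For Lpin1 1426516_a_at they were Dolpp1 (0.354 SD) and both probesets of the fatty acid elongase Elovl5 (0.364 and 0.404). The strain differences of Elovl5 were 0.73 and 0.74, likewise tied to the choice.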

How the data were processed

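RNA from mammary glands of 10 mice in lactation was hybridised to Affymetrix arrays, 1 per mouse. Log2 values were made and deposited by the authors after RMA (affy), which corrects background, quantile normalizes and summarizes probes, on the 22690 probesets of both chips, joined with matchprobes. Versions are not given in the sources used here. RMA can compress differences of dim probesets, and quantile normalization removes shifts shared by all transcripts.

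Groups were taken from the sample records and gene symbols from the platform annotation (20380 probesets with 1 symbol, 691 with several, 1555 unnamed; 20351 matched by Entrez identifier to GRCm38.p6 RefSeq genes, 0 symbols updated). Leaving aside 64 controls, probesets were tested where 2 to the power of the mean log2 value exceeded 20 in at least 1 strain, as in the methods (11412 probesets, 7361 genes). limma 3.58.1 in R 4.3.3 (lmFit, eBayes, two-sided, QSi5 minus CBA) was used with BH adjustment. The fit was tested on simulated data. The p-values set the strain difference against the spread between mice, with variances moderated over probesets. Strain was the only term, so that spread includes any difference between chips. The number of arrays limits the precision.

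The members and lists were chosen with earlier results of these data known, and no list was given a test of its own. Named genes were the members, up to 4 called genes of each list (or the 1 with the smallest p), and the 3 probesets most alike 2 of the members. Other names, such as Angptl4, Acsl4, Ptprc and the neighbours, were chosen after their values were seen. Alternatives changed the intensity minimum, scaling, chip or replicate term, variance model, probeset class or the mice used. Growth, histology and qRT-PCR data were not used here.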

Additional observations from a re-analysis of the deposited data

Results flagged for a closer look

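Within a strain, groups of 5 arrays were examined for an array far from the others by Dixon's criterion. Of 42 groups of member probesets 5 met it, where chance flags about 1 in 20, and probesets of 1 gene are not independent. Another 18 groups were of genes named for their values, of which 3 met it, and these cannot be set against chance. In QSi5 3 different mice stood apart. Replicate 2 read 8.21 for Angptl4 1417130_s_at, with the next QSi5 array at 5.04. Replicate 1 read 7.14 for Pnpla3 1420655_at, with the next at 6.06. Replicate 3 read 3.63 for Gpat4 1422841_at, a probeset under the intensity minimum, with the next at 3.12.

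In the other 5 groups, 4 of them of members, the array was CBA replicate 1. It read 11.74 for Lpl 1415904_at, with the next CBA array at 12.46, and 8.14 for Cd36 1450884_at, with the next at 8.67. For Lpin1 it read 7.52 on 1426516_a_at, with the next CBA array at 9.03, and 7.33 on 1418288_at, with the next at 8.65. For Thrsp 1424737_at it read 10.31, with the next at 11.59.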

How the results depend on the processing

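The differences of the 16 member probesets, none of them called with all arrays, were computed under 23 alternatives, 10 of which left out 1 mouse. They held 339 with the same direction and call, 20 that changed sign without being called on either side, and 4 in which Agpat1 1421025_at passed the threshold. The number of called members moved to 1 (Agpat1) with an intensity minimum of 50, a second quantile normalization or array weights, and spanned 0 to 1 when mice were left out. Members at the looser threshold, 2 in all arrays, numbered 1 with a minimum of 50, with median centring and with array weights (Agpat1 each time), 0 on MOE430 2.0 alone, 1 on MOE430A 2.0 alone (Dgat2 1422678_at), and 1 to 3 when mice were left out. Pathway genes called, 2 in all arrays, numbered 4 with chip type as a block, 1 on MOE430 2.0 alone, 0 on MOE430A 2.0 alone and 0 to 2 when mice were left out. Probesets called over the whole table, 336 in all arrays, numbered 146 on MOE430 2.0 alone, 65 on MOE430A 2.0 alone and 215 to 415 when mice were left out. The chips alone hold fewer mice, and other causes were not tested.

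With the replicate number as a replicate block, 260 probesets were called over the whole table, 0 members passed the looser threshold, 0 members and 0 pathway genes were called, and the adjusted p of Agpat1 1421025_at was 0.197 in limma. For mice that shared a number, the deviations from their strain means correlated at -0.25, 0.29, -0.37, 0.06 and 0.02 for numbers 1 to 5. Mice numbered 2, 4 and 5 were on the same chip type in both strains, and those numbered 1 and 3 were not. Whether mice of a number were paired was not tested. The 95% intervals of the tested members reached 0.21 to 0.63 to either side, and the 5 member probesets under the intensity minimum were not tested.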
